A study of Lotus japonicus with 36 samples.

Results

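Root nodules of Lotus japonicus collected on the fourth day after nitrate was withdrawn (R4) were compared with nodules collected on the third day (R3), with 3 libraries in each group, 6 of the 36 libraries of the series. The libraries were taken by their labels. All plants carried the MG-20 genotype, and both groups had been supplied with 10 mM KNO3 before its removal. The other groups used here are R1, R2 and R5 (days 1, 2 and 5 after removal), T1 to T6 (days 1 to 6 of 10 mM KNO3) and T0, nodules at 4 weeks after inoculation with no treatment. The 3 libraries of each group are biological replicates per the series' design text. The labels do not say how many plants a library pooled or after how many days of nitrate the removal started. No group used here was kept on nitrate or left untreated to the age of R4, so that time after removal and plant age cannot be told apart. Harvest dates and batches are not in the labels used here, so day and harvest cannot be told apart either.

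Nodules are root organs in which rhizobia inside plant cells fix nitrogen gas, and the plant supplies them with carbon. Leghaemoglobins, which carry oxygen at a low free level, and transporters between plant cell and bacteria are among the most abundant transcripts of working nodules. Nitrate in the soil is known to lower nitrogen fixation and to hasten nodule senescence, and fixation can return when nitrate is removed early enough.

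Expression was measured for 50526 transcript models, all but 1 with an Lj identifier, which the deposited tables pair with no gene name. None could be paired with a name through the RefSeq gene table of another assembly (0 matches). The labelled tissue could therefore not be checked against marker genes, models are described by length and level without a function, and 4 are given by identifier. Levels are CPM, the counts of a model relative to the library total, with totals scaled by TMM (a factor that evens out differences in composition). A model was called when edgeR's quasi-likelihood test, fitted to all 36 libraries, gave a Benjamini-Hochberg adjusted p under 0.05 and the log2 fold change was at least 1 in size.

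The R4 libraries held 34821931 to 42748794 counts and the R3 libraries 37586002 to 45795038, with TMM factors between 0.915 and 1.05. Of the libraries used here, 3 stood apart. R4 replicate 1 differed from the other R4 libraries in the models that nitrate had changed, and the results that rest on it are given with and without it. T0 replicate 1 held 98 models at 10 CPM or more that were over 8 times higher than in the other T0 libraries, against 1 and 4 such models in T0 replicates 2 and 3. R5 replicate 1 differed by 2-fold or more from R5 replicate 2 in 14% of models, and its weight among limma's sample quality weights was 0.336. The calls of R5 against T6 among the models that moved in R4 are given with and without it. Of all tested models 39.7% were called between T6 and T0, 9776 (19.4%) lower and 10279 (20.4%) higher in T6. The sets are called T6 fallers and T6 risers here, and they were chosen without any R4 or R3 library.

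In R4 nodules 3176 models (6.29% of 50475 tested) were called higher and 1175 (2.33%) lower than in R3 nodules, 8.62% in all. By the adjusted p alone 19.7% passed, and 31.8% had an unadjusted p under 0.05. Models that nitrate had lowered made up most of the rise: 2144 of the 9776 T6 fallers (21.9%) were called higher and 64 (0.655%) lower. They were 67.5% of the models called higher, while T6 fallers were 19.4% of the models tested. The median log2 fold change was 0.59 over the T6 fallers and -0.02 over all tested models. All 3 R4 libraries lay above all 3 R3 libraries in 3630 T6 fallers (37.1%), against 15.8% of all models, and below them in 318 (3.25%), against 15.7% of all models. With the sets chosen without T0 replicate 1, an alternative added after the data were seen, 21.4% of 10139 T6 fallers were called higher. In these bulk samples, fewer cells of a type and less RNA per cell cannot be told apart.

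The T6 risers moved in both directions. In R4, 662 of 10279 (6.44%) were called lower and 555 (5.4%) higher than in R3, against 2.33% and 6.29% of all models, and their median log2 fold change was -0.26. Among the 30420 models called neither way between T6 and T0, 477 (1.57%) were called higher and 449 (1.48%) lower in R4. Both counts depended on single libraries. Lower and higher calls numbered 1082 and 238 T6 risers without R4 replicate 1, 519 and 729 without R4 replicate 2, 359 and 485 without R4 replicate 3, and 436 and 477 without R3 replicate 3. Which direction had more calls therefore changed with the libraries used. A fit of the 6 libraries alone, which estimates the spread from these libraries only, called 2164 models. In it 13% of the T6 fallers were called higher, against 3.81% of all models, and 3.31% of the T6 risers lower, against 1.21%.

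The step from R3 to R4 had the most calls of the 5 daily steps after nitrate in the fit of all 36 libraries. R1 against T6 gave 279 calls (0.553% of models), R2 against R1 gave 3357 (6.65%), R3 against R2 gave 556 (1.1%), and R5 against R4 gave 2120 (4.2%). The rank over R2 against R1 was not secure. In this fit a model had the same spread in every group. The median SD of log2 CPM over all models was 0.341 in R4, 0.268 in R3, 0.253 in R2 and 0.240 in R1. Fitted with the 6 libraries alone, R4 against R3 gave 2164 calls. R2 against R1 was counted only in the fit of all 36 libraries, so the rank with separate spreads is not shown. R4 against R3 gave 2965 calls without R4 replicate 3 and 3340 without R3 replicate 1. These counts come from fits with 1 library fewer, while R2 against R1 was counted only with all its libraries. The ranks at equal group size are therefore not shown. It gave 3592 to 5449 when any other R4 or R3 library was left out. Returns of T6 fallers came mainly in 2 of these steps, with 1793 called higher in R2 than R1 and 2144 in R4 than R3. The other 3 steps called 60 (R1 against T6), 40 (R3 against R2) and 455 (R5 against R4) higher. Without R4 replicate 3, R3 replicate 1 or R4 replicate 2, 1450, 1714 and 1731 T6 fallers were called higher in R4 than R3. Without R3 replicate 3, R3 replicate 2 or R4 replicate 1, 1865, 2168 and 2834 were. Over all models the shares called higher were 0.145% at R1 against T6, 4.09% at R2 against R1, 0.622% at R3 against R2, 6.29% at R4 against R3 and 1.29% at R5 against R4. Neighbouring steps share a group of libraries, so only R2 against R1, with no library in common with R4 or R3, was set against this step by a test.

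**Figure D1:**
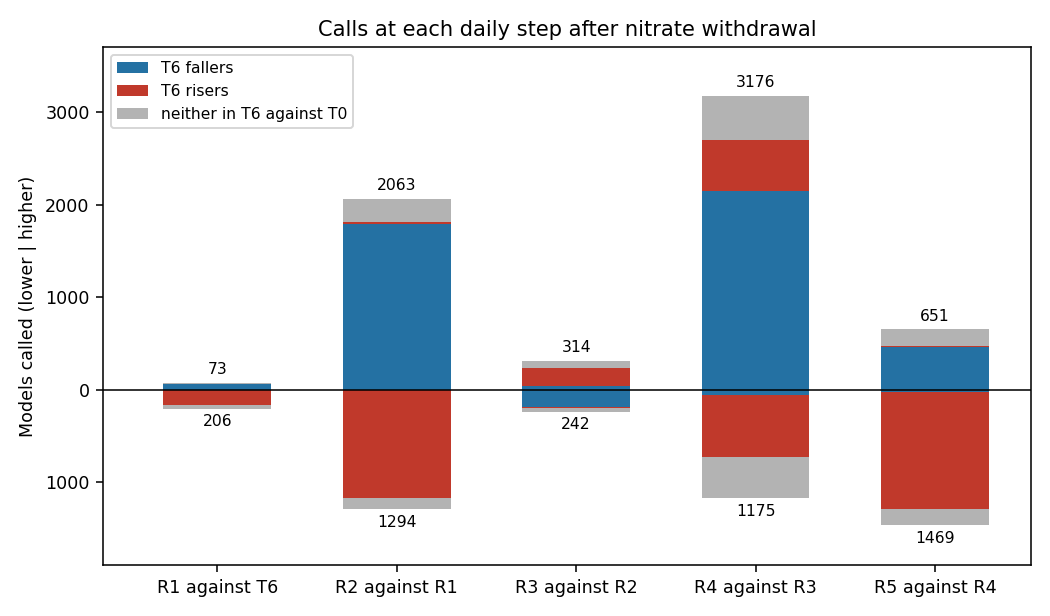
Models called between consecutive days after nitrate, split by whether they were T6 fallers, T6 risers or neither (models called higher above the zero line, lower below it). R4 against R3 has 2144 T6 fallers called higher and R2 against R1 has 1793, while R3 against R2 has 40.

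The difference between the R4 minus R3 step and the R2 minus R1 step was called in 5.05% of models, with the later step above the earlier one in 1632 models (3.23%) and below it in 917 (1.82%). For T6 fallers it was above in 278 (2.84%) and below in 432 (4.42%). For T6 risers it was above in 1035 (10.1%) and below in 118 (1.15%). The median log2 step of the T6 fallers was 0.55 at R4 against R3 and 0.55 at R2 against R1. That of the T6 risers was -0.27 at R4 against R3 and -0.46 at R2 against R1. Of the T6 fallers already called higher in R2 than R1, 858 of 1793 (47.9%) were called higher again in R4 than R3, and of the others 1286 of 7983 (16.1%).

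The share of T6 fallers called higher in R4 was lowest in the models that nitrate had lowered least. It was 452 of 4769 (9.48%) among T6 fallers with a log2 fall of 1 to 2, 21.6% at 2 to 3, 33.1% at 3 to 4, 53.9% at 4 to 6 and 52.9% (270 of 510) above 6. The median log2 fold change of R4 over R3 in these bins was 0.38, 0.70, 0.99, 1.64 and 2.46. The share also differed by level. Models under 1 CPM in T0 were called higher in 9.43% of cases and those of 100 CPM or more in 39% (265 of 680).

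The share also differed by the day from which the calls against T0 ran unbroken to T6. A model called earlier but missed on a later day was placed by its last unbroken run. Called lower than in T0 were 1.3% of all models in T1, 8.54% in T2, 10.8% in T3, 15.7% in T4 and 16.3% in T5, and called higher 2%, 10.5%, 13.1%, 18.4% and 21.2%. T6 fallers called lower from nitrate day 1 on, and on every later day, were called higher in R4 in 153 of 354 cases (43.2%), and those lost from day 2 in 1178 of 2288 (51.5%). For loss from day 3 the share was 26.3%, from day 4 10%, from day 5 7.15% and from day 6 5.91% (155 of 2623). All 3 of these last shares were under the 21.9% over all T6 fallers. Among the T6 risers 98 of 719 (13.6%) of those raised from day 1 were called lower in R4, 10.9% from day 2, 8.79% from day 3, and 1.06%, 3.11% and 2.31% from days 4, 5 and 6. Of all tested models 2.33% were called lower. Called higher in R4 were 0.834%, 6.59%, 3.92%, 8.31%, 7.36% and 2.59% of the T6 risers raised from days 1, 2, 3, 4, 5 and 6, against 6.29% of all models.

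**Figure D2:**
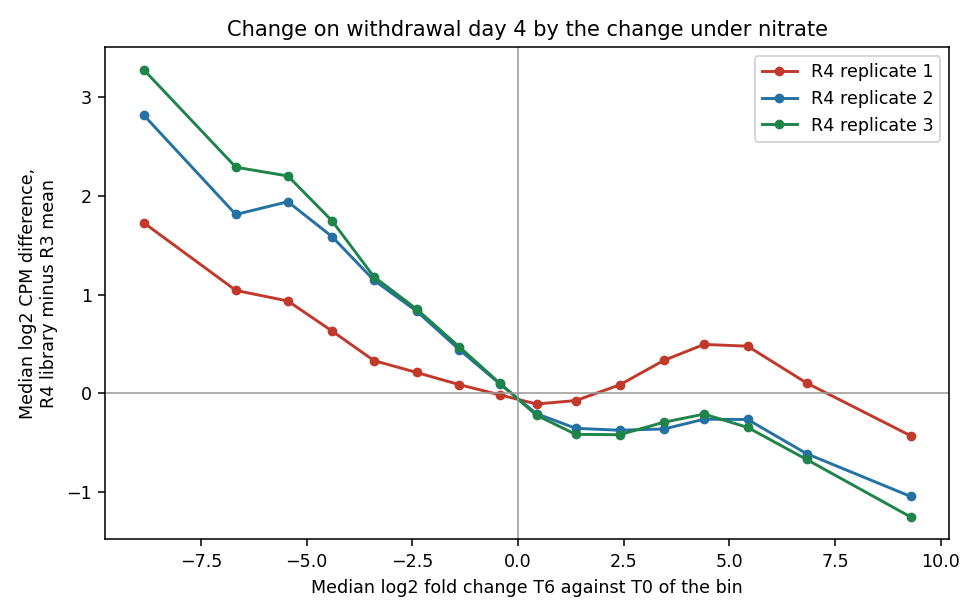
Median log2 difference of each R4 library to the R3 mean, by bin of the log2 change from T0 to T6 (all tested models, called or not). In models with a log2 change below -8, R4 replicates 1, 2 and 3 had medians of 1.73, 2.82 and 3.28, and in models with a change of 4 to 5, 0.50, -0.26 and -0.21.

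In single libraries the return of the T6 fallers was smallest in R4 replicate 1. Their median log2 difference to the R3 mean was 0.21, 0.70 and 0.75 in R4 replicates 1, 2 and 3, while over all tested models it was -0.00, -0.03 and -0.01. In R4 replicates 1, 2 and 3, 43.8%, 68.9% and 69.2% of the T6 fallers lay above all R3 libraries, against 31.1%, 32.6% and 34.7% of all models. For the T6 risers the median difference was 0.05, -0.37 and -0.43. R4 replicate 1 had 30.8% of them below all R3 libraries and 37.2% above, near or above the 31.1% over all its models on each side. R4 replicates 2 and 3 had 55.8% and 56.2% of them below all R3 libraries. In all models with a log2 rise of 4 to 5 from T0 to T6, R4 replicate 1 stood higher than R3 and the other R4 libraries lower, while above 8 all 3 were lower, with medians of -0.43, -1.04 and -1.25.

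Each library was given a position on the line from the mean of T0 (0%) to the mean of T6 (100%) in log2 CPM. Over the T6 fallers the R4 libraries lay at 52.4%, 29.2% and 25.2% in replicates 1, 2 and 3, and the R3 libraries at 71.2%, 63.4% and 68.4%. The groups did not overlap, at 35.6 ± 14.7% in R4 and 67.7 ± 3.95% in R3 (SD, n = 3 each). The two-sided exact permutation test gave p = 0.1, the smallest that 3 against 3 libraries allow. R2 stood at 59.9 ± 0.85% and the R5 libraries at 20.8 ± 9.24%, with replicate 1 at 11.5%.

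Over the T6 risers the groups overlapped. R4 libraries lay at 78.9%, 58.1% and 61.5%, and R3 libraries at 71.5%, 70.1% and 76.5% (66.2 ± 11.2% in R4 and 72.7 ± 3.34% in R3, two-sided exact permutation p = 0.4). R4 replicate 1 lay nearer to T6 than every R3 library and the other R4 libraries nearer to T0. Over both sets together the positions were 67.8%, 46% and 46.3% in R4 and 71.4%, 67.3% and 73.1% in R3 (exact permutation p = 0.2).

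**Figure D3:**
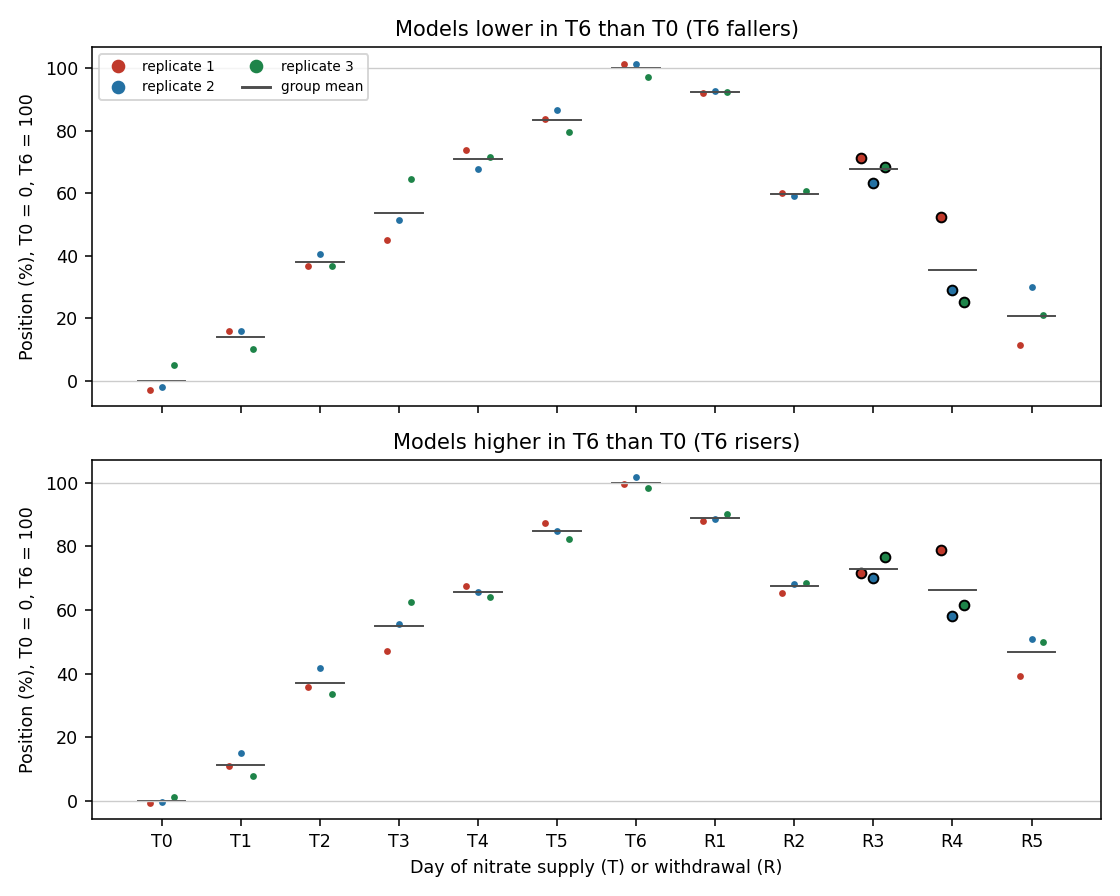
Position of each library between T0 (0%) and T6 (100%) over the T6 fallers and over the T6 risers, by day, with points for replicates and bars for group means. R4 spans 25.2% to 52.4% for fallers and 58.1% to 78.9% for risers, and R3 spans 63.4% to 71.2% and 70.1% to 76.5%.

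The gap between the sets set R4 apart from R3 in every library, including R4 replicate 1. The position of the T6 fallers minus that of the T6 risers, a measure added after the data were seen, was -26.6, -28.9 and -36.3 percentage points in R4 replicates 1, 2 and 3. In R3 it was -0.35, -6.76 and -8.05 points. The exact permutation p was 0.1, the smallest possible. On a linear CPM scale the median T6 faller was farther from T0 than the median T6 riser, and the gap was again lower in R4, at 20.1, 16.9 and 15.4 points against 35.2, 32.3 and 29.5 in R3 (exact permutation p = 0.1). Which set lay nearer to T0 therefore depended on the scale. On the log2 scale the sets lay farther apart in R4 than in R3, and on the linear scale closer together. The mean linear gap was 0.681 points in T0 and 1.41 in T6, and 18.5, 16.6 and 16.0 points in T5, R1 and R5. The mean log2 gap was -25.9 points in R5. A lower value than in R3 was thus not particular to R4, and the 2 scales do not show the same change.

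The R4 libraries differed more widely than the R3 libraries, and more of their spread lay along the T0 to T6 line than in any other group. The median SD of log2 CPM over all models was 0.341 in R4 and 0.268 in R3, with 0.341 in R5 and 0.340 in T5, so the size of the spread was not particular to R4. Among the T6 fallers it was 0.45 in R4 and 0.31 in R3, and among the T6 risers 0.42 in R4 and 0.30 in R3. In R5 it was 0.38 among the T6 fallers and 0.45 among the T6 risers. The spread of the T6 fallers was thus widest in R4, and that of the T6 risers in R5. Of the within-group sum of squares, 27.3% lay along the T0 to T6 line in R4, against 2.56% in R3. It was 19.4% in T3, 10.6% in R5 and at most 4.21% in the other 8 groups. These comparisons of spread are descriptions with no test.

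R4 replicates 2 and 3 were much closer to each other than either was to replicate 1. R4 replicates 1 and 2 differed by 2-fold or more in 11.7% of models, replicates 1 and 3 in 11.5%, and replicates 2 and 3 in 4.3%. The R3 pairs differed in 3.35% to 4.68% of models. Over the 20055 T6 fallers and risers, the deviation of R4 replicate 1 from its group mean correlated with the T6 minus T0 change at r = 0.637. The difference between R4 replicates 2 and 3 correlated with it at -0.0067, and the 3 R3 libraries between -0.211 and 0.175. These correlations are across models, which share libraries and scaling and are not replicates, and no p is given. R4 replicate 1 had the lowest weight of all 36 libraries in limma's sample quality weights (0.31, against 0.88 and 1.05 in R4 replicates 2 and 3). Its total count was the highest of the R4 libraries and its TMM factor 0.915, against 0.939 and 0.933. The part of depth and scaling in its place was not tested.

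The 2144 T6 fallers called higher in R4 were chosen by the R4 and R3 libraries, so their levels in these are descriptions. Their summed level was 80878, 147842 and 170018 CPM in R4 replicates 1, 2 and 3, and 29328, 36215 and 33548 CPM in R3. R5 held 219920, 117616 and 161462 CPM, T0 198306 to 252480 and T6 15680 to 20511. R4 replicate 1 was the lowest R4 library in 1958 of the 2144 models, replicate 3 the highest in 1466, and replicate 1 the highest in 65. All R4 libraries lay above all R3 libraries in 1890 (88.2%). Without R4 replicate 1, 2095 of the 2144 were still called (97.7%), and 2834 T6 fallers in all. These models had a median of 8.65 CPM in T0, against 3.34 CPM for the T6 fallers not called higher. Their median length was 1274 bp, near the 1318 bp of the T6 fallers not called higher and the 1223 bp of all models.

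The 555 T6 risers called higher in R4 had a different pattern between libraries. Their summed level was 38628, 11134 and 19251 CPM in R4, and 7852, 7475 and 8845 CPM in R3. T6 held 26196 to 27358 CPM, R5 4852 to 8313, and T0 2097 to 2505. R4 replicate 1 was the highest R4 library in 476 of the 555 and R4 replicate 2 the lowest in 492. All R4 libraries lay above all R3 libraries in 351 (63.2%). Without R4 replicate 1, 216 of the 555 were still called (38.9%), and 238 T6 risers in all. With limma voom and sample quality weights, 277 (49.9%) were called.

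**Figure D4:**
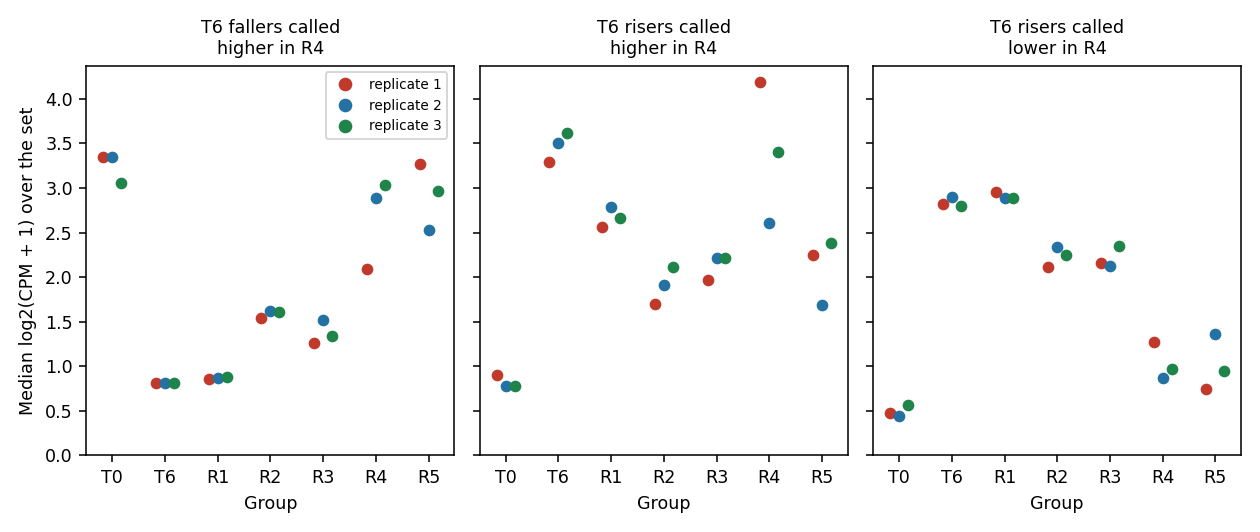
Median log2(CPM + 1) per library in T0, T6 and R1 to R5 for the 2144 risen T6 fallers, the 555 risen T6 risers and the 662 fallen T6 risers. R4 replicate 1 is the lowest R4 library in 1958 of the risen fallers and the highest in 476 of the risen risers.

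The 662 T6 risers called lower in R4 had sums of 11587, 9456 and 8650 CPM in R4 and 25099, 23703 and 31574 CPM in R3, with all R4 libraries below all R3 libraries in 622 (94%). R4 replicate 1 was the highest R4 library in 407 of them, and the median ratio of the highest to the lowest library was 1.84 in R4 and 1.55 in R3.

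The R4 changes were set beside comparisons that share no library with them. Of the 3176 models called higher in R4 than R3, 2160 (68%) were called higher in R5 than T6, against 15.7% of all tested models, and 408 (12.8%) lower, against 13.3%. In R2 against R1, 874 (27.5%) of the 3176 were called higher, against 4.09% of all models, and 174 (5.48%) lower, against 2.56%. The 555 risen T6 risers went the other way in both: in R5 against T6, 394 (71%) fell and 5 (0.901%) rose, and in R2 against R1, 153 (27.6%) fell and 0 rose. Of all T6 risers 11.3% fell and 0.204% rose in R2 against R1. Of the 2160 models, 2039 were T6 fallers, 5 were T6 risers and 116 were neither. The T6 fallers and T6 risers, and so the 555, were chosen partly by the T6 libraries, which the comparison of R5 with T6 shares. The shares of all T6 fallers and all T6 risers called in R5 against T6 were not computed here. The 68% and 71% therefore cannot show whether the moved models differed from their sets. Of the 1175 models called lower in R4, 653 (55.6%) were called lower in R5 than T6, against 13.3%, and 42 (3.57%) higher. Of those 653, 546 were T6 risers, so the same limit applies. Without R5 replicate 1, an alternative added after the data were seen, 63.9% of the 3176 were called higher in R5 than T6, against 13.8% of all models, 49.7% of the 1175 lower, against 11.4%, and 72.6% of the 555 lower.

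The models that had been most abundant in untreated nodules held a larger share of the counts in R4 than in R3. The 20 T6 fallers with the highest mean CPM in T0, with 1 model per locus, held 3.64%, 6.57% and 7.33% of all counts in R4 replicates 1, 2 and 3, against 1.62%, 1.87% and 1.69% in R3. Their mean share was 5.85 ± 1.95% in R4 and 1.73 ± 0.13% in R3 (SD, n = 3 each), 3.39 times higher, with no overlap (two-sided exact permutation p = 0.1, the smallest possible). The share was 12.3% in T0, 0.883% in T6 and 8.35% in R5. Of the 20, 12 were called higher and 0 lower, 14 passed the adjusted p alone, and 17 had an unadjusted p under 0.05. Of all tested models 6.29% were called higher, and 19.7% and 31.8% passed the adjusted and unadjusted p in either direction. All R4 libraries lay above all R3 libraries in 16, against 15.8% of all models. Among the T6 fallers of 100 CPM or more in T0, 39% were called higher and 65.7% had all R4 libraries above. R4 replicate 1 was the lowest R4 library in 17 of the 20.

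The most abundant of them, a 471 bp model with 23827 CPM in T0, had 10193, 18437 and 23010 CPM in R4 against 2070, 2285 and 2560 CPM in R3. Its lowest R4 value was over 3 times its highest R3 value, and the log2 fold change was 2.90 ± 0.32 (SE, adjusted p = 7.34e-07, edgeR). Its counts were whole in 0% of libraries, so its reads were divided with other models and part of the change may belong to those. A 558 bp model, alone at its locus, had 4786, 9704 and 12912 CPM in R4 against 590, 916 and 748 CPM in R3. It had been at 16857 CPM in T0 and 82.7 CPM in T6, and its log2 fold change of 3.60 ± 0.44 was the highest of the 20 (adjusted p = 2.72e-06, edgeR). In both models R4 replicate 1 was the lowest and replicate 3 the highest R4 library.

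A 461 bp model had 4404, 7557 and 7394 CPM in R4 and 2173, 2596 and 2241 CPM in R3, with a log2 fold change of 1.47 ± 0.35 (adjusted p = 0.00317, edgeR). A 937 bp model rose by 2.45 ± 0.39 on the log2 scale but stayed far below its T0 level, with 230, 401 and 738 CPM in R4, 76.3, 111 and 62.1 CPM in R3 and 2103 CPM in T0 (adjusted p = 6.53e-05, edgeR). The return to the T0 level differed between models: a 1543 bp model stood at 86.9% of its T0 mean in R4, and the 937 bp model at 21.7%. In 4 models that were not called the groups overlapped, with log2 fold changes of 0.19, -0.04, -0.08 and 0.32.

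**Figure D5:**
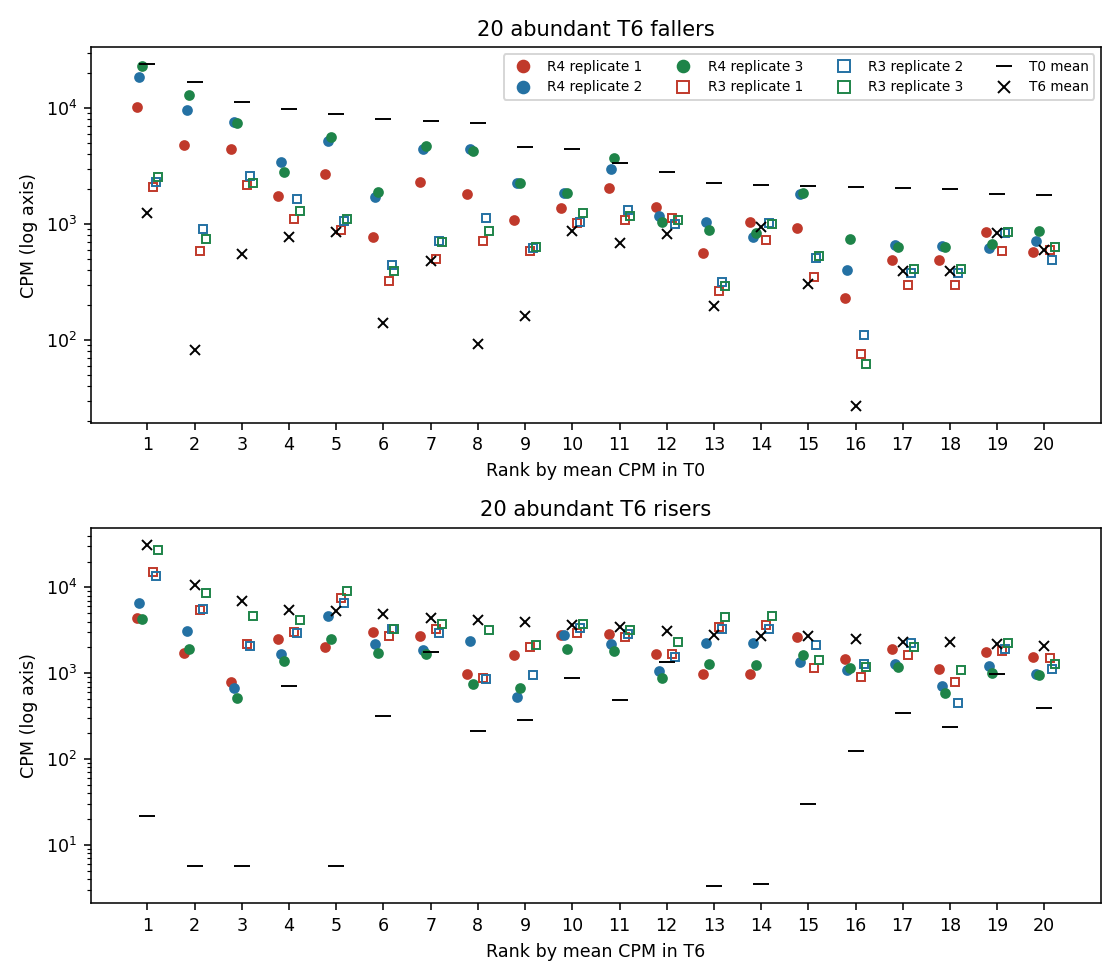
CPM (log axis) of the 20 most abundant T6 fallers and the 20 most abundant T6 risers in each R4 library (filled) and each R3 library (open), with the T0 mean as a dash and the T6 mean as a cross. In 16 of the fallers all R4 points lie above all R3 points, and in 10 of the risers all R4 points lie below, against 15.8% and 15.7% of all models.

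The 20 T6 risers with the highest mean CPM in T6 held 3.62%, 3.84% and 2.72% of counts in R4 against 6.80%, 6.22% and 8.68% in R3. The mean share was 3.39 ± 0.59% in R4 and 7.23 ± 1.29% in R3 (SD, n = 3 each), again with no overlap (two-sided exact permutation p = 0.1). Of the 20 models, 0 were called in either direction by edgeR, 4 were lower by the adjusted p alone and 6 were lower at an unadjusted p under 0.05, where 19.7% and 31.8% of all models passed in either direction. DESeq2 called 1 lower and limma voom with sample weights 3. The most abundant, a 1030 bp model, had 4438, 6639 and 4326 CPM in R4 and 14954, 13763 and 27336 CPM in R3. Its groups did not overlap, yet the log2 fold change of -1.86 ± 0.99 had an adjusted p of 0.198 in the edgeR fit. Its counts were whole in 8.33% of libraries. A 1425 bp model had 2485, 1662 and 1390 CPM in R4 and 3054, 2950 and 4129 CPM in R3, and its log2 fold change of -0.87 ± 0.21 passed the adjusted p (0.00416, edgeR) but not the 2-fold threshold.

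The models with the largest rises among those of at least 10 CPM in R4 and no overlap between libraries had 0 counts in R3 and uneven levels in R4. Lj0g3v0066909.1 (1050 bp) had 37.8, 0.206 and 5.91 CPM in R4 replicates 1, 2 and 3, and 0 counts in every R3 library, so its mean was at least 197-fold above a floor of 3 counts per R3 library. Without R4 replicate 1 this bound was 41.2-fold. Lj0g3v0199029.1 (705 bp) had 36.9, 0.103 and 6.65 CPM in R4 and 0 counts in R3, at least 196-fold higher in R4. Without R4 replicate 1 this bound was 45.5-fold. The edgeR adjusted p was 0.000685 and 0.00223 for these models, while limma voom with sample weights gave 0.0618 and 0.125, which do not pass. Over the alternatives that tested them as single models the adjusted p ran between 7.04e-05 and 0.0618 for Lj0g3v0066909.1 and between 0.000423 and 0.125 for Lj0g3v0199029.1. In the fits of the 6 libraries alone the low-count filter removed both, so those fits gave no value. Neither was called between T6 and T0, and outside R4 no library exceeded 0.525 CPM for Lj0g3v0066909.1 or 1.90 CPM for Lj0g3v0199029.1. R5 held a mean of 0 and 0.103 CPM.

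Among the 289 called models with no overlap and at least 10 CPM in R3, the 2 largest falls were in models called higher in T6 than T0. Lj5g3v0085150.1 (1533 bp) had 2.27, 0.155 and 1.72 CPM in R4 and 15.2, 23.6 and 16.6 CPM in R3, a log2 fold change of -3.74 ± 0.70 (adjusted p = 0.000374, edgeR). It stood at 92.8 ± 37.2 CPM in T6 and 1.34 CPM in T0, against a mean of 1.38 CPM in R4. Its counts were whole in 0% of libraries. Lj0g3v0171779.1 (2111 bp) had 49.2, 89.5 and 58.1 CPM in R4 and 446, 287 and 753 CPM in R3, a log2 fold change of -2.92 ± 0.51 (adjusted p = 0.000183, edgeR). In T6 it was at 618 ± 327 CPM and in T0 at 13.3 CPM. Every R4 library lay below every R3 library for both.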

How the data were processed

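RNA from nodules was sequenced in 36 libraries of 12 groups. The submitters' processing notes name fastp 0.22.0, HISAT2 and featureCounts. Build, annotation and strand setting: not given in the sources used here. Estimated counts were deposited for 50526 models, 1 of them without an Lj identifier (0.00595% of counts), and FPKM values were deposited beside them. Among the deposited estimated counts 49.6% had a fraction beyond a tolerance of 0.001, so a read could be split between models, and a change of 1 model can belong to another, at its own locus or, since models alone at their locus also had fractional counts, at a different one. The deposited FPKM served only to derive model lengths, whose disagreement between libraries had a 99th percentile of 0.0214%.

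Estimated counts were rounded. The quasi-likelihood test of edgeR 4.0.16 was run under R 4.3.3 after TMM scaling and filterByExpr in 1 fit of all libraries, with limma 3.58.1 and DESeq2 1.42.0 as alternatives. The filter kept 50475 models of 41260 loci. Log2 CPM used a prior count of 2, and medians by day a pseudocount of 1 CPM, which understates changes at low levels. Values per library were tested by exact permutation, two-sided, for which 3 against 3 libraries give no p below 0.1. Named models were the 2 largest rises and 2 largest falls among called models with no overlap between libraries and a higher-group mean of at least 10 CPM. The abundant models were the 20 T6 fallers highest in T0 and the 20 T6 risers highest in T6. The sets, lists and tests were chosen with earlier results of these data known. Fold bounds cover counting error only. No pair of R4 or R3 libraries was a duplicate (chi-square per degree of freedom of 24.8 or more).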

Additional observations from a re-analysis of the deposited data

How the results depend on the processing

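RLE scaling, no low-count filter, locus sums, limma voom, DESeq2 and a choice of T6 sets without T0 replicate 1 kept the counts of models called within 1.5 times of 3176 higher and 1175 lower (2600 to 3466 higher, 1003 to 1371 lower), and none of the differences or fold changes recomputed here turned its direction. Which direction had more T6 risers called did turn: 662 lower and 555 higher became 519 and 729 without R4 replicate 2, 359 and 485 without R4 replicate 3, and 436 and 477 without R3 replicate 3. The 6 libraries alone gave 2164 calls (1643 higher, 521 lower), with 13% of T6 fallers higher and 3.31% of T6 risers lower. Same-numbered R4 and R3 libraries deviated from their group means with r = 0.085, 0.069 and -0.024. R4 replicates 1 and 2 correlated best with their own number, and R4 replicate 3 with R3 replicate 2 (r = 0.098). Correlations this weak cannot show whether the numbers pair the samples, and the main fit had no replicate block. With the numbers as a replicate block in the fit of 36 libraries, 4212 models were called (3080 higher, 1132 lower). With the block in the 6 libraries alone, 1521 were called (1243 higher, 278 lower), with 10.3% of T6 fallers higher, 1.82% of T6 risers lower and an adjusted p of 0.0524 for Lj5g3v0085150.1.

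Leaving out each R4 or R3 library in turn gave 2965 to 5449 calls, 2216 to 3688 higher and 749 (without R4 replicate 3) to 1761 (without R4 replicate 1) lower. T6 fallers higher ranged from 14.8% to 29% and T6 risers lower from 3.49% to 10.5%. The position on the T0 to T6 line, R4 minus R3, ranged from -24.4 to -13.5 points. The median log2 difference ranged from 0.46 to 0.72 for T6 fallers and from -0.41 to -0.18 for T6 risers. The share of counts in the 20 abundant models ranged from 3.38 to 5.22 points for fallers and from -4.35 to -3.11 for risers. The fallers minus risers position difference ranged from -27.5 to -22.7 points, and was -14.9 on linear CPM against -25.5 on the log scale. The log value was a widening of the gap in R4 and the linear value a narrowing. The median SD within R4 was 0.268 over models of at least 1 CPM against 0.341 over all. The cause of these shifts was not tested. T6 fallers under 1 CPM in T0 were called higher in 9.43% of cases, against 39% at 100 CPM or more, and the part of depth in this was not tested.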

Other observations

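Some of the change on the fourth day fell in models called neither way between T6 and T0, which can still have differed below the thresholds. In R4, 477 of these 30420 models (1.57%) were called higher and 449 (1.48%) lower than in R3. Both shares were under the 6.29% and 2.33% of all tested models. Of the 477, 116 (24.3%) were called higher in R5 than T6, against 15.7% of all tested models, and of the 449, 106 (23.6%) lower, against 13.3%. The shares of all tested models include the T6 fallers and T6 risers. Those over the 30420 models alone were not computed here, so the comparison is not like for like. The median level of the 477 was 3.21 CPM in R4 and 0.952 CPM in R3, and of the 449 it was 0.523 CPM in R4 and 1.30 CPM in R3, values that the choice of the models by these libraries fixes in direction. Their median lengths were 912 bp and 1074 bp, against 1223 bp over all models.

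The first digit of the identifier, which no annotation used here explains, made little difference to the return of the T6 fallers. Those called higher in R4 were 19.7% of T6 fallers with digit 0 and between 21.4% and 23.9% for digits 1 to 6. Of loci with a model called higher, 2595 of 2791 were also called higher as a sum over their models, and of those with a model called lower, 948 of 999. Only 1 locus held models called in both directions.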
